A study of Mus musculus with 4 samples.

Results

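The genes of the mitochondrial ribosome were measured by RNA sequencing of bulk cells sorted from E.G7 tumours as CD8 T cells that recognise ovalbumin. Members were all listed genes whose symbol is Mrpl or Mrps followed by digits and optional letters, which gave 77 of 14082 listed genes, and all 77 passed the filter on low counts. E.G7 is a mouse T lymphoma line (EL4) that was made to express ovalbumin, and it was grown under the skin of mice aged 6 to 10 weeks. There were 2 libraries labelled KO, genotype Cd8-cre Smad4-fl/fl, and 2 libraries labelled WT, genotype Smad4-fl/fl. Both groups therefore carried the floxed Smad4 alleles and bore the same tumour, and Cre was driven by Cd8 regulatory sequence, so other cells of the host need not have recombined. Whether libraries of 1 group stem from different mice, or from pools, is not stated in the labels. The p-values thus cover only the variation among these 4 samples, which may be technical.

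Mitochondria keep a ribosome of their own, which makes the few proteins encoded in mitochondrial DNA, all of them core parts of the respiratory chain and its ATP synthase. Its RNAs are transcribed in the organelle, but its proteins are encoded in the nucleus, made in the cytosol and imported. Some have counterparts in bacterial ribosomes and others are found only in mitochondria. In activated T cells, translation in mitochondria is known to be needed for sustained division and cytokine production. The large subunit joins amino acids and holds the exit tunnel, while the small subunit reads the messenger RNA.

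Smad4, the targeted gene, had 29.3 and 40.3 CPM in the libraries labelled KO and 31.7 and 29.4 CPM in those labelled WT, where CPM are counts scaled to library size with TMM factors. It was not lower in the libraries labelled KO (log2 fold change 0.19, edgeR adjusted p = 0.397), so every direction below is between libraries as labelled. Its log2 fold change was 0.40 without KO replicate 1 (edgeR adjusted p = 0.00806) and -0.063 without KO replicate 2 (edgeR adjusted p = 0.784). Libraries held 24366540 to 26218277 counts. The listed markers read for CD8 T cells were Cd3d, Cd3e, Cd3g, Cd247, Cd8a, Cd8b1 and Lck. Only Cd8a and Cd8b1 encode CD8, and the others mark T cells at large. These 7 summed to 1807 and 1791 CPM in the libraries labelled KO against 2711 and 2765 CPM in those labelled WT. By edgeR 6 were lower and 0 higher, and DESeq2, limma-voom and the unadjusted p below 0.05 gave 0 higher too. The 10 neutrophil markers summed to 1609 and 1631 CPM in the libraries labelled KO against 521.8 and 525.0 CPM in those labelled WT, with 7 higher. The 10 macrophage and monocyte markers, of cells the sort should remove, summed to 20110 and 20710 CPM in the libraries labelled KO and to 19520 and 20280 CPM in those labelled WT, and no listed marker of any cell type was at 0 in all 4. In every library this sum was far above that of the 7 T cell markers. The values below therefore cannot be read as those of CD8 T cells alone. Summed dendritic cell markers had 358 and 366 CPM in the libraries labelled KO against 203 and 207 CPM in those labelled WT, with 3 of 6 higher. B cell markers had 16.1 and 13.8 CPM in the libraries labelled KO against 6.88 and 6.64 CPM in those labelled WT, with 2 of 4 higher, and natural killer cell markers 8.05 and 6.19 CPM in the libraries labelled KO against 34.1 and 31.6 CPM in those labelled WT, with 1 of 3 lower. Fibroblast and endothelial markers had 633.5 and 690.2 CPM in the libraries labelled KO against 597.4 and 549.8 CPM in those labelled WT, with 2 of 6 higher. The 8 proliferation markers summed to 1422 and 1498 CPM in the libraries labelled KO against 1169 and 1146 CPM in those labelled WT, with 6 higher. Over all tested genes, 10.1% were higher and 11.0% lower by edgeR. The part of the marker shifts in the results below was not tested. In bulk RNA, fewer cells of a type and less RNA per cell cannot be told apart.

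Promoter windows of 4 members are shown because many members hold motifs known from nuclear genes that serve mitochondria. Each of the 4 holds a motif, so they do not stand for all members. The windows of Mrpl16 and Mrpl11, both called higher, and of Mrpl24, lowest in log2 fold change, held none of the motifs searched. The motifs searched on both strands were CCGGAAG for ETS factors, a motif of 10 letters with 1 free base for NRF1, and AAGATGGC for YY1, and no 2 different motifs overlapped in the windows shown. Sequences are from RefSeq on GRCm38.p6, read along the gene from 250 bases before its start to 30 bases after it, with motif letters in capitals. Mrps27, Mrpl17 and Mrpl45 were called higher in the libraries labelled KO, and Mrpl32 had the second lowest log2 fold change of the members. Mrps27 lies at chr13:99344536-99344815 on the plus strand, Mrpl17 at chr7:105811058-105811337 on the minus strand, Mrpl45 at chr11:97315466-97315745 on the plus strand and Mrpl32 at chr13:14613008-14613287 on the minus strand.
Mrps27: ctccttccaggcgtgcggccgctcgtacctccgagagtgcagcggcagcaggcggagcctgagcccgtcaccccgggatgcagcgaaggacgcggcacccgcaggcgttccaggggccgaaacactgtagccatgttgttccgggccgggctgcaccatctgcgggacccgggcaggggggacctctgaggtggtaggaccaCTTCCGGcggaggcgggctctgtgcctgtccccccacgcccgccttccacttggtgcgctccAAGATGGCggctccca
Mrpl17: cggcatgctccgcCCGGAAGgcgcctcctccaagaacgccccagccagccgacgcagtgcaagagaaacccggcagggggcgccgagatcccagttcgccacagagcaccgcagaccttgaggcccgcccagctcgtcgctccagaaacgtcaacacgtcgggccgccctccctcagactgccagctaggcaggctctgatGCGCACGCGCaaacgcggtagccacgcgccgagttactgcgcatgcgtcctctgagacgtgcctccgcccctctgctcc
Mrpl45: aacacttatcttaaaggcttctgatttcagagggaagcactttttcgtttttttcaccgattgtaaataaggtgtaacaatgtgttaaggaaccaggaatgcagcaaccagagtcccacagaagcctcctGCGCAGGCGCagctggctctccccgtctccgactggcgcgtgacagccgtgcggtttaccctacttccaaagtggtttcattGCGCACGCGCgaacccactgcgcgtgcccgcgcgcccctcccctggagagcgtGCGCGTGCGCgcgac
Mrpl32: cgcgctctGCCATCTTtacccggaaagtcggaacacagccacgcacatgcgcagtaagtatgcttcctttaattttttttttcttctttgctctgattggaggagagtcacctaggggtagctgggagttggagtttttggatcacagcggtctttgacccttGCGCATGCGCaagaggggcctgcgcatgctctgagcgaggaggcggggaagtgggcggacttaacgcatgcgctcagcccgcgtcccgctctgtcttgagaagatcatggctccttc
Of 68 members with a promoter window of 300 bases, 42 (61.8%) held at least 1 of the 3 motifs, against 30.8% of 10632 tested genes and 16.4% of all 27025 genes with a window. The ETS letters were in 36.8% of member windows and 19.3% of those of tested genes. NRF1 letters were in 19.1% of member windows and 10.8% of those of tested genes, and YY1 letters in 17.6% and 4.98%. Among the 15 members called higher that had a window, 9 (60.0%) held a motif, close to the 61.8% of all members with a window. Mrps27 held 1 ETS and 1 YY1 match and Mrpl45 held 3 NRF1 matches, while Mrpl32, which was not called, held 1 NRF1 and 1 YY1 match. The RefSeq start of Mrpl32 lies downstream of its start in GENCODE M21, and Psma2 starts 75 bases from the latter on the other strand. The Mrpl32 window thus also covers the start of Psma2, and its YY1 match lies past that start. Matches in this window cannot be assigned to Mrpl32 alone. A match describes letters in a window and not a bound site.

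Part of the mitochondrial ribosome was slightly higher in the libraries labelled KO than in those labelled WT, and no member passed the test in the other direction. Of 77 members, 17 (22.1%) were called higher in the libraries labelled KO and 0 lower (edgeR quasi-likelihood, Benjamini-Hochberg adjusted p under 0.05 over 13358 tested genes). Over all tested genes 10.1% were called higher and 11.0% lower, which is 1354 and 1472 genes, against 2105 and 1013 genes with scaling to library totals alone. The median log2 fold change was 0.16 over members and -0.0037 over all tested genes, and the members ranged from -0.28 to 0.45. Among the 17, folds lay between 1.16 and 1.37, with adjusted p-values from 0.00452 to 0.0469 (edgeR). Besides, 2 members were lower by unadjusted p below 0.05, and the lower calls of DESeq2 and limma-voom also numbered 0.

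Both libraries labelled KO lay above both labelled WT for 54 of 77 members and below them for 5, and in 18 the groups overlapped. Over all tested genes, 29.7% lay above and 30.0% below. The median member was 0.20 and 0.13 higher on the log2 scale in KO replicate 1 than in WT replicates 1 and 2, and 0.16 and 0.10 higher in KO replicate 2. Within groups, the median log2 ratio of the members was 0.020 for KO replicate 1 over KO replicate 2 and -0.056 for WT replicate 1 over WT replicate 2. The shift between the WT libraries was smaller than each of the 4 shifts between groups. Confidence intervals of 95% for single members reached at most 0.69 upward and -0.53 downward on the log2 scale, and 8 members had an upper limit above a 1.5-fold rise.

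The number of calls fell when a WT library was left out. The share called higher was then smaller among members than over all genes. Without WT replicate 1 only Mrps27 was called, and without WT replicate 2 only Mrpl42, Mrpl11 and Mrpl16 were, whereas 13 and 20 members were called without KO replicate 1 or 2. Over all genes, 714 and 837 were called higher without WT replicate 1 or 2, against 1354 with all libraries, and the members' median log2 fold change was then 0.13 and 0.18. DESeq2 called 10 members, all among the 17, and scaling to library totals alone called 35, which held all 17. The log2 fold change was above 0 in all 11 alternatives for 58 members and below 0 in all 11 for 6.

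**Figure D1:**
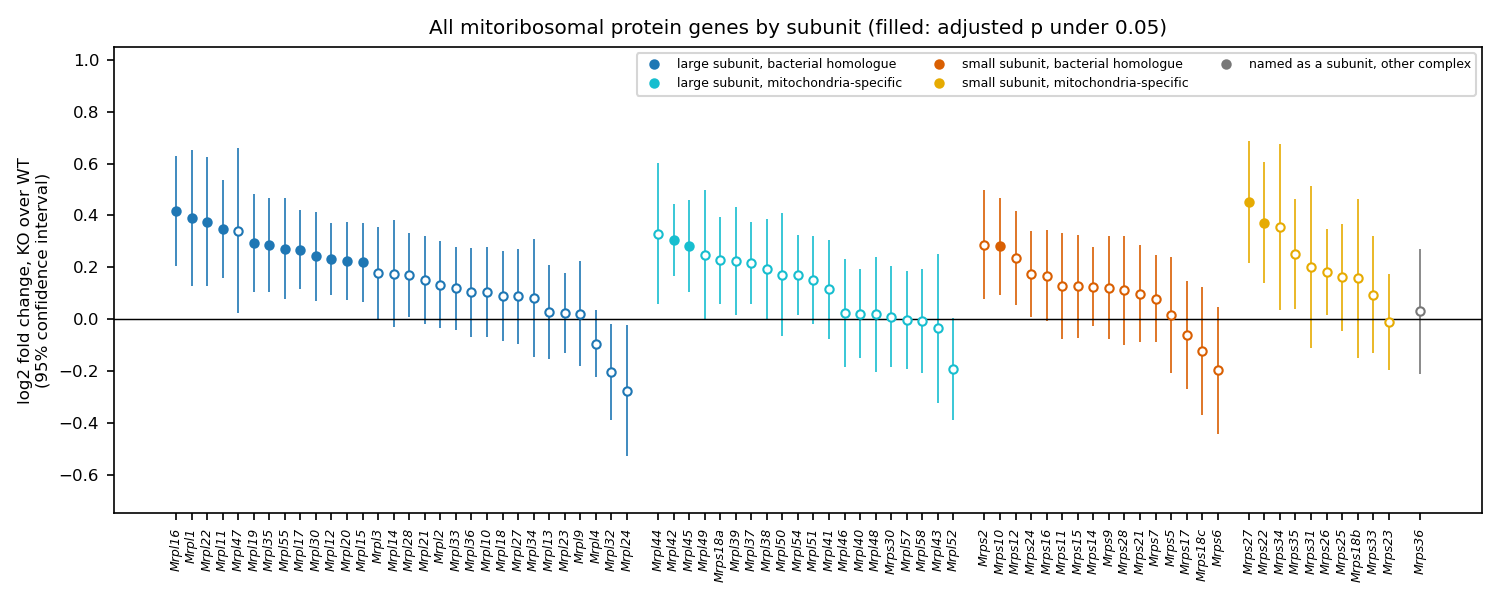
log2 fold change (KO over WT) of each of the 77 genes with its 95% confidence interval, grouped by subunit and by whether a bacterial counterpart is known; filled points passed an adjusted p of 0.05 (edgeR). All 17 filled points lie above 0, between 0.22 and 0.45, and 14 of them belong to the large subunit.

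Among large subunit proteins with a bacterial counterpart, 12 of 30 were higher and 0 lower, against 10.1% and 11.0% of all tested genes. Their median log2 fold change was 0.17. By unadjusted p below 0.05, 15 were higher and 2 lower, and 0 were lower by DESeq2 or limma-voom. Mrpl16, which lies near the peptidyl transferase centre, had 44.5 and 46.2 CPM in the libraries labelled KO and 32.9 and 34.9 CPM in those labelled WT. Its fold was 1.34, with a log2 fold change of 0.42 ± 0.098 (SE) and adjusted p = 0.00874 (edgeR). In mm10, Mrpl16 spans 11770391 to 11774960 of chromosome 19 (plus strand), and its libraries did not overlap between the groups. Mrpl11, at the base of the stalk that recruits translation factors, had 56.2 and 59.1 CPM in the libraries labelled KO and 44.4 and 46.3 CPM in those labelled WT (log2 fold change 0.35 ± 0.087, SE, edgeR adjusted p = 0.0132). Mrpl12, the stalk protein itself and also a binding partner of the mitochondrial RNA polymerase, had 121 and 118 CPM in the libraries labelled KO and 103 and 101 CPM in those labelled WT (log2 fold change 0.23, edgeR adjusted p = 0.0217). The groups did not overlap for either stalk gene.

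Mrpl17 had 95.4 and 96.9 CPM in the libraries labelled KO and 81.8 and 77.9 CPM in those labelled WT (log2 fold change 0.27, edgeR adjusted p = 0.0163). Mrpl35 had 60.3 and 59.1 CPM in the libraries labelled KO and 49.4 and 48.7 CPM in those labelled WT (log2 fold change 0.28, edgeR adjusted p = 0.0291). Mrpl19 had 62.0 and 57.9 CPM in the libraries labelled KO and 47.4 and 50.4 CPM in those labelled WT (log2 fold change 0.29, edgeR adjusted p = 0.0305). All 3 are counterparts of bacterial large subunit proteins, and in each both libraries labelled KO were the higher pair. The counts of Mrpl19 are uncertain, because 36.0% of its exon bases overlap exons of Gcfc2 on the opposite strand and no source used here gives the strandedness of the counting. The other 6 calls were Mrpl22, whose product lines the exit tunnel, Mrpl1, of the stalk beside which used transfer RNA leaves, and Mrpl20, Mrpl15, Mrpl30 and Mrpl55. Mrpl1 had 26.3 and 25.6 CPM in the libraries labelled KO and 19.1 and 20.5 CPM in those labelled WT. Mrpl22 had 29.3 and 32.3 CPM in the libraries labelled KO and 23.4 and 24.0 CPM in those labelled WT. In all 6 the groups did not overlap. Their log2 fold changes lay between 0.22 for Mrpl15 and 0.39 for Mrpl1, and their adjusted p-values between 0.0355 for Mrpl22 and 0.0469 for Mrpl55 (edgeR). Mrpl22 is uncertain as well, since 22.4% of the 50-base words of its transcripts recur in a processed pseudogene on chromosome 14.

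Members with values lower in the libraries labelled KO were also found in this class, although they did not pass the test. Mrpl24, part of the exit tunnel region, had 24.6 and 24.4 CPM in the libraries labelled KO and 31.4 and 27.9 CPM in those labelled WT, the lowest log2 fold change of all members (-0.28, 95% confidence interval -0.53 to -0.022, edgeR adjusted p = 0.120). Mrpl32, whose precursor is cut by a protease of the inner membrane before it joins the ribosome, had 49.1 and 48.0 CPM in the libraries labelled KO and 56.5 and 55.4 CPM in those labelled WT (log2 fold change -0.20, edgeR adjusted p = 0.114). These 2 were the members lower by unadjusted p below 0.05. Exons of Rrnad1 on the opposite strand overlap 26.3% of the exon bases of Mrpl24, so its counts are uncertain. Mrpl4, Mrpl52 and Mrps6 were the other members in which both libraries labelled KO lay below both labelled WT, with log2 fold changes of -0.096, -0.19 and -0.20, and they were chosen after their values were seen.

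Of 20 large subunit proteins known only from mitochondria, 2 (10.0%) were higher, a share near the 10.1% of all tested genes, and 0 lower, with a median log2 fold change of 0.16 (0 lower also by unadjusted p below 0.05, DESeq2 and limma-voom). Mrpl42 had the smallest p of all members, with 150 and 149 CPM in the libraries labelled KO and 116 and 125 CPM in those labelled WT (log2 fold change 0.31 ± 0.064, SE, edgeR adjusted p = 0.00452). Mrpl45, which anchors the ribosome to the inner membrane beside the tunnel exit, had 76.5 and 69.7 CPM in the libraries labelled KO and 61.4 and 58.9 CPM in those labelled WT (log2 fold change 0.28, edgeR adjusted p = 0.0271). In both genes the groups stood apart. In mm10, Mrpl42 spans 95480805 to 95501940 of chromosome 10 (minus strand) and Mrpl45 spans 97315716 to 97329920 of chromosome 11 (plus strand).

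**Figure D2:**
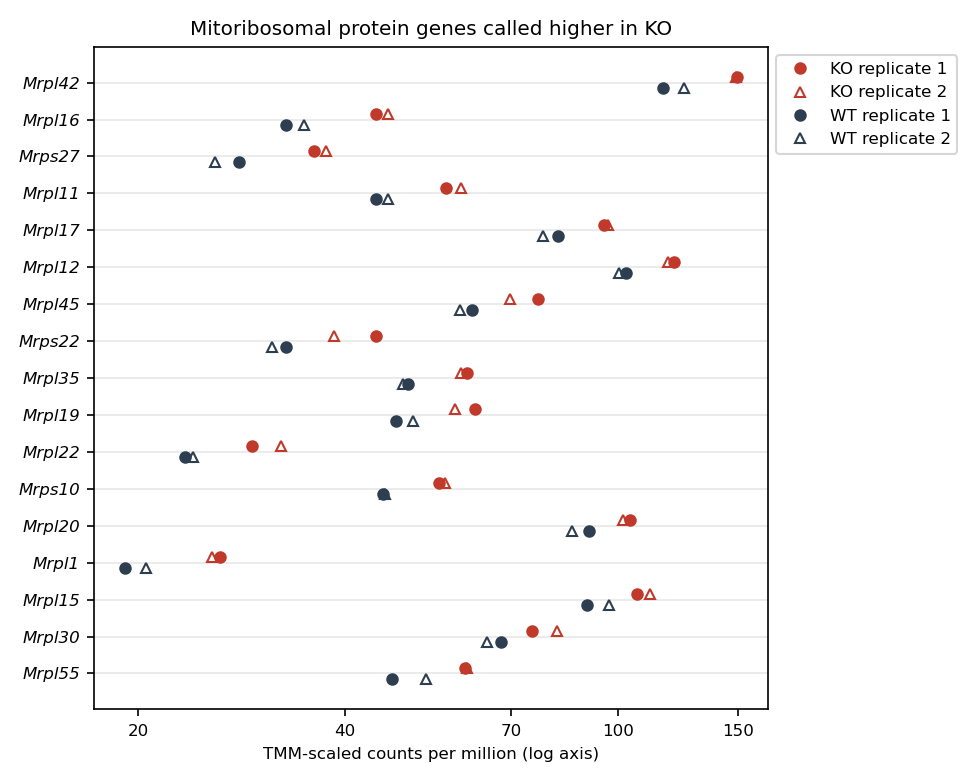
TMM-scaled CPM (log axis) of the 17 genes called higher, in order of p from the top, with 1 point for each library. In every gene both KO points lie right of both WT points, and the fold is smallest, 1.16, for Mrpl15.

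In the small subunit, 3 of 26 proteins (11.5%) were higher, a share near the 10.1% of all tested genes, and 0 lower (median log2 fold change 0.14; by unadjusted p below 0.05, 9 higher and 0 lower, and 0 lower by DESeq2 or limma-voom). Mrps27, a pentatricopeptide repeat protein with no bacterial counterpart, had the largest fold of all members, 1.37. It had 36.1 and 37.5 CPM in the libraries labelled KO and 28.0 and 25.8 CPM in those labelled WT (log2 fold change 0.45 ± 0.11, SE, edgeR adjusted p = 0.0103). Mrps22, also known only from mitochondria, had 44.4 and 38.5 CPM in the libraries labelled KO and 32.8 and 31.3 CPM in those labelled WT (log2 fold change 0.37, edgeR adjusted p = 0.0272). Mrps10, with a bacterial counterpart, had 54.8 and 56.0 CPM in the libraries labelled KO and 45.5 and 45.7 CPM in those labelled WT (log2 fold change 0.28, edgeR adjusted p = 0.0356). No library of 1 group reached into the other in any of the 3. In mm10, Mrps27 spans 99344786 to 99415562 of chromosome 13 and Mrps10 spans 47368887 to 47381417 of chromosome 17 (both plus strand), and Mrps22 spans 98588730 to 98601660 of chromosome 9 (minus strand).

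The proportion of the subunits was nearly the same in all libraries. Summed counts of large subunit members were 2.42 and 2.46 times those of small subunit members in the libraries labelled KO and 2.44 and 2.43 times in those labelled WT, ranges that overlap. The difference between 14 of 50 calls in the large and 3 of 26 in the small subunit was not tested. Mrps36, which carries a ribosomal name but is known as a part of the alpha-ketoglutarate dehydrogenase complex, had a log2 fold change of 0.030, and leaving it out left 17 of 76 called higher.

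The Mrps18 genes are 3 paralogs whose products sit at different places, Mrps18a in the large subunit and Mrps18b and Mrps18c in the small one. Mrps18a had 72.5 and 74.3 CPM in the libraries labelled KO and 61.2 and 64.2 CPM in those labelled WT (log2 fold change 0.23, 95% confidence interval 0.059 to 0.39, edgeR adjusted p = 0.0553). Mrps18b had 19.6 and 19.1 CPM in the libraries labelled KO and 15.9 and 18.8 CPM in those labelled WT (log2 fold change 0.16, interval -0.15 to 0.46). Mrps18c had 31.6 and 29.4 CPM in the libraries labelled KO and 31.0 and 35.4 CPM in those labelled WT (log2 fold change -0.12, interval -0.37 to 0.12). None of the 3 passed, the groups overlapped for Mrps18c, and no difference between the paralogs was tested. Of the 50-base words of Mrps18b transcripts, 14.6% recur in a processed pseudogene on chromosome 2, so its counts are uncertain.

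Replicates of a group differed most for 4 genes, none of them called. Mrpl49 had 59.5 and 48.2 CPM and Mrps31 17.6 and 21.05 CPM in the libraries labelled KO, log2 ratios of replicate 1 over 2 of 0.30 and -0.26. Mrpl43 had 27.9 and 22.2 CPM and Mrpl44 22.8 and 28.2 CPM in the libraries labelled WT, log2 ratios of 0.33 and -0.31. These gaps exceed the median log2 fold change of the members between the groups, 0.16. Mrpl43 shares 33.4% of its exon bases with Twnk on the opposite strand and is uncertain, as are 20 other members whose exons overlap a listed gene. Of the 56 members without such an overlap, 16 (28.6%) were called higher and 0 lower, against 10.1% and 11.0% of all tested genes.

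Levels of the members, compared per length, spanned 29.2 times. By the deposited FPKM (fragments scaled to gene length and sequencing depth), averaged over the 4 libraries, Mrpl54 was highest at 98.4, followed by Mrpl28 at 79.8, Mrps21 at 75.8 and Mrpl12 at 69.8. Their ranges over the libraries were 91.8 to 107, 72.7 to 90.5, 72.1 to 82.5 and 63.3 to 76.6 FPKM, so Mrpl54 stood above the next, while Mrpl28, Mrps21 and Mrpl12 overlapped as neighbours. The lowest members were Mrpl1 at 5.14, Mrps35 at 4.35, Mrpl48 at 4.33 and Mrpl47 at 3.37 FPKM. Of these, Mrpl1, Mrps35 and Mrpl48 overlapped as neighbours, with ranges of 4.28 to 5.94, 3.86 to 4.78 and 4.20 to 4.54 FPKM, while Mrpl47 reached 3.94 FPKM at most. The median member had 18.5 FPKM and the median tested gene 4.25 FPKM. The order of members was nearly the same in every library, with Spearman correlations of 0.982 to 0.995 over 77 genes that share the same gene lengths.

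The order depends on the length used. The lengths implied by the deposited FPKM equalled the union of all annotated exons in GENCODE M21 within 0.1% for all 77 members, and in 19 members that union was over 2 times the longest protein-coding transcript. Rescaled to the coding transcript, a choice made after the data were seen, Mrpl42 moved from rank 21 to rank 1 (35.4 and 196 FPKM), and Mrpl33 moved from rank 60 to rank 2 (10.2 and 157 FPKM). Mrps10 moved from rank 71 to rank 30 (6.04 and 43.8 FPKM). Mrpl54, at rank 3, and Mrpl47, at rank 77, kept their places near the ends. Fold changes between groups are not affected by the length.

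**Figure D3:**
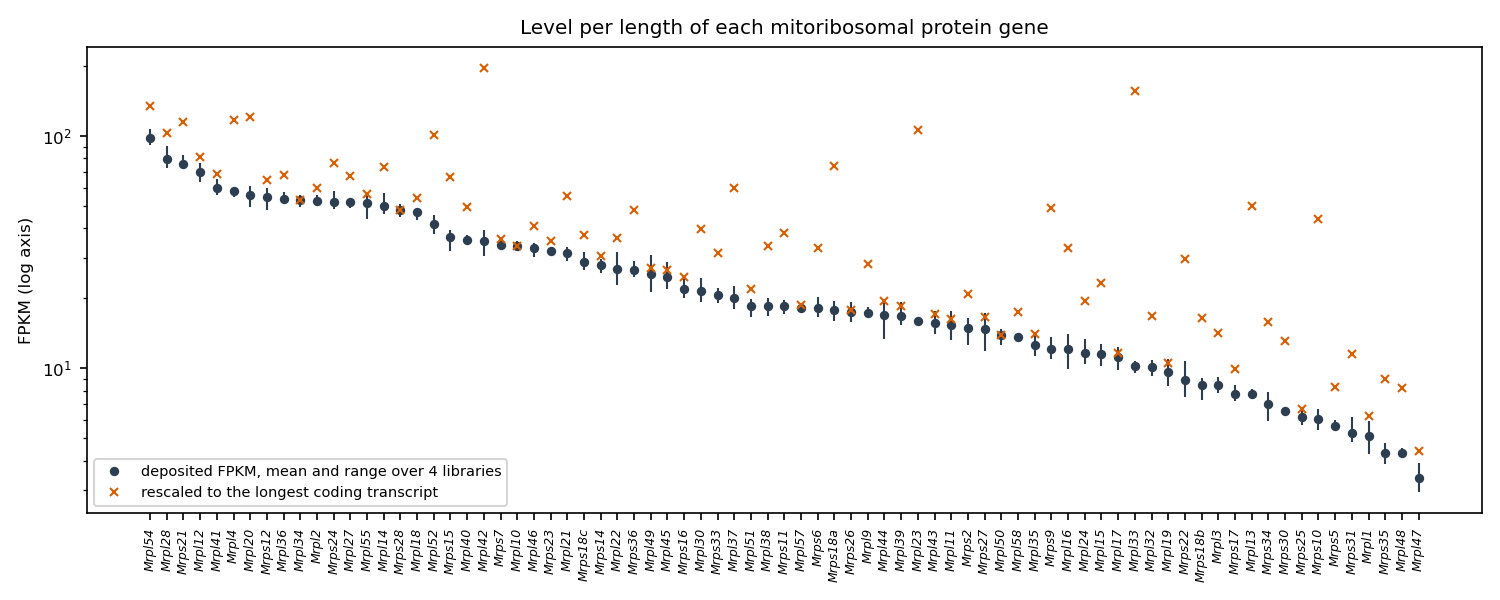
Level of each of the 77 genes in FPKM (log axis), as deposited (points with the range over the 4 libraries) and rescaled to the longest coding transcript (crosses). Deposited means run from 98.4 for Mrpl54 to 3.37 for Mrpl47, and the crosses of Mrpl42 and Mrpl33 lie far above their points.

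The members' share of all counts was 0.477% and 0.469% in the libraries labelled KO and 0.399% and 0.409% in those labelled WT. Both libraries labelled KO were above both labelled WT, and with 2 libraries a group no p is given. Nuclear genes of the respiratory chain took 1.85% and 1.83% in the libraries labelled KO and 1.59% and 1.62% in those labelled WT. Transcripts of mitochondrial DNA, whose open reading frames these ribosomes translate, took 6.57% and 6.99% in the libraries labelled KO and 10.4% and 10.2% in those labelled WT. Counts of mitochondrially encoded genes were 13.8 and 14.9 times those of the members in the libraries labelled KO against 26.1 and 25.1 times in those labelled WT, so the ratio was the lower in both libraries labelled KO. Shares within a library sum to the same total, and with mitochondrially encoded genes left out of it the members took 0.510% and 0.504% in the libraries labelled KO and 0.445% and 0.455% in those labelled WT.

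**Figure D4:**
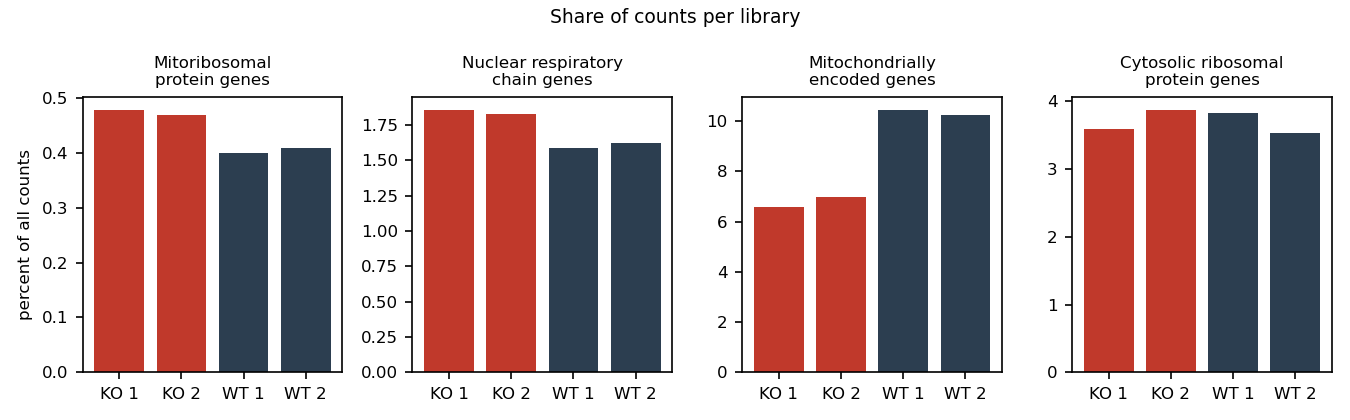
Percent of all counts per library taken by mitoribosomal protein genes, nuclear respiratory chain genes, mitochondrially encoded genes and cytosolic ribosomal protein genes, each panel with its own axis from 0. The first 2 are higher in both KO libraries (0.477% and 0.469% for the mitoribosome), mitochondrially encoded genes are lower in both, and cytosolic ribosomal protein genes overlap between the groups.

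Other parts of the mitochondrial translation apparatus were read from lists chosen with earlier results known. Of 5 mitoribosomal proteins with other names, 1 was higher and 0 lower (0 lower also by unadjusted p below 0.05, DESeq2 and limma-voom). That gene, Ptcd3, a small subunit protein near the entry of the messenger RNA, had 84.5 and 71.6 CPM in the libraries labelled KO and 55.6 and 57.1 CPM in those labelled WT (log2 fold change 0.47, edgeR adjusted p = 0.0028). Dap3, Chchd1, Aurkaip1 and Gadd45gip1 had log2 fold changes between 0.092 and 0.20 and did not pass. Of 25 tested factors of ribosome assembly and ribosomal RNA modification, 3 were higher and 0 lower (3 lower by unadjusted p below 0.05, 0 by DESeq2 or limma-voom), with a median of 0.015. The 12% higher is near the 10.1% of all tested genes, and library totals alone gave 5 higher and a median of 0.10. The 3 were C1qbp, a matrix protein that binds mitochondrial RNA and ribosomes, Rcc1l, needed for subunit assembly, and Mrm3, a methyltransferase of the large ribosomal RNA. C1qbp had 212 and 226 CPM in the libraries labelled KO and 164 and 153 CPM in those labelled WT (log2 fold change 0.46, edgeR adjusted p = 0.000194), while Rcc1l and Mrm3 had log2 fold changes of 0.42 and 0.45 and lost their calls without WT replicate 1 (edgeR adjusted p = 0.192 and 0.0826) or WT replicate 2 (edgeR adjusted p = 0.0574 and 0.262). Rcc1l also lost its call without KO replicate 1 (edgeR adjusted p = 0.135).

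Translation factors had 2 of 15 (13.3%) higher, near the 10.1% of all tested genes, and 0 lower, with a median of 0.21. DESeq2 and limma-voom each called 1 higher and 0 lower, and 0 were lower by unadjusted p below 0.05. Guf1, a GTPase that acts on the mitochondrial ribosome, had 40.7 and 38.6 CPM in the libraries labelled KO and 26.9 and 29.7 CPM in those labelled WT (log2 fold change 0.49, edgeR adjusted p = 0.00644, and 0.0838 without WT replicate 1). Tufm, the elongation factor that brings aminoacyl-tRNA to the ribosome, had a log2 fold change of 0.21 (edgeR adjusted p = 0.0462), a call lost without WT replicate 1, WT replicate 2 or KO replicate 1 (edgeR adjusted p = 0.0974, 0.287 and 0.163). Of 20 enzymes that load amino acids on mitochondrial transfer RNAs, 3 (15%) were higher and 2 (10.0%) lower, near the 10.1% and 11.0% of all tested genes, with a median of 0.11. Library totals alone gave 5 higher, 2 lower and a median of 0.19. Lars2, for leucine, had 605 and 687 CPM in the libraries labelled KO and 854 and 882 CPM in those labelled WT (log2 fold change -0.43, edgeR adjusted p = 0.000408). It had the highest CPM of its list, whose median was 23.0 CPM. Sequence shared with other genes was read for the members alone and not for Lars2, so its counts are uncertain. Fars2, for phenylalanine, was at -0.45 (edgeR adjusted p = 0.00526). Tars2, for threonine, and Yars2, for tyrosine, were among those higher, at 0.32 and 0.42. Without WT replicate 1, Tars2 and Yars2 lost their calls (edgeR adjusted p = 0.0926 and 0.167), and Yars2 also without WT replicate 2 (edgeR adjusted p = 0.0693).

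Of 12 genes that transcribe or maintain mitochondrial DNA, 0 were called in either direction by edgeR, DESeq2 and limma-voom, with 2 higher and 1 lower by unadjusted p below 0.05 and a median of -0.017. With library totals alone that median was 0.068, with 1 called higher. Of 16 genes read as a mark of mitochondrial content, 8 were higher and 0 lower, against 10.1% and 11.0% of all tested genes. Their median was 0.15, and 0 were lower also by unadjusted p below 0.05, DESeq2 and limma-voom. The chaperonin genes Hspd1 and Hspe1 led them, at log2 fold changes of 0.59 and 0.57 (edgeR adjusted p = 4.81e-06 and 1.52e-05), and the prohibitin gene Phb and the malate dehydrogenase gene Mdh2 were at 0.39 and 0.29. Nuclear genes of the respiratory chain were read from a wider list of 81. Of these, 21 (25.9%) were higher and 1 (1.23%) lower, against 10.1% and 11.0% of all tested genes, with a median of 0.12. Library totals alone gave 40 higher, 1 lower and a median of 0.20. Cox6a2, Uqcrq, Atp5g1 and Ndufv1, of complexes IV, III, V and I, were led by Cox6a2 at 1.27, the others lying at 0.52, 0.43 and 0.38. The 1 lower, named after its value was seen, was Cox7a2l, a factor of respiratory supercomplexes, at -0.31 (edgeR adjusted p = 0.00338). Of 87 ribosomal proteins of the cytosol, 3 (3.45%) were higher and 8 (9.2%) lower, against 10.1% and 11.0% of all tested genes, with a median of -0.076. Library totals alone gave 7 higher, 3 lower and a median of 0.0092. Rps26, Rps3a1 and Rps15a were lower, at -0.39, -0.36 and -0.38, and Rplp0 was higher, at 0.24, a call lost without WT replicate 2 or KO replicate 2 (edgeR adjusted p = 0.12 and 0.0559). Genes of this family have many pseudogene copies, so their counts are uncertain. Of 13 mitochondrially encoded genes 11 were lower and 0 higher (0 higher also by unadjusted p below 0.05, DESeq2 and limma-voom), with a median of -0.76. The complex I subunit genes mt-Nd4l, mt-Nd2, mt-Nd1 and mt-Nd4 had the smallest p-values, at log2 fold changes of -1.80, -0.83, -0.78 and -0.76. All these lists were compared with the same libraries, in which 6 of 7 CD8 T cell markers were lower and 7 of 10 neutrophil markers higher, and no difference between lists was tested.

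**Figure D5:**
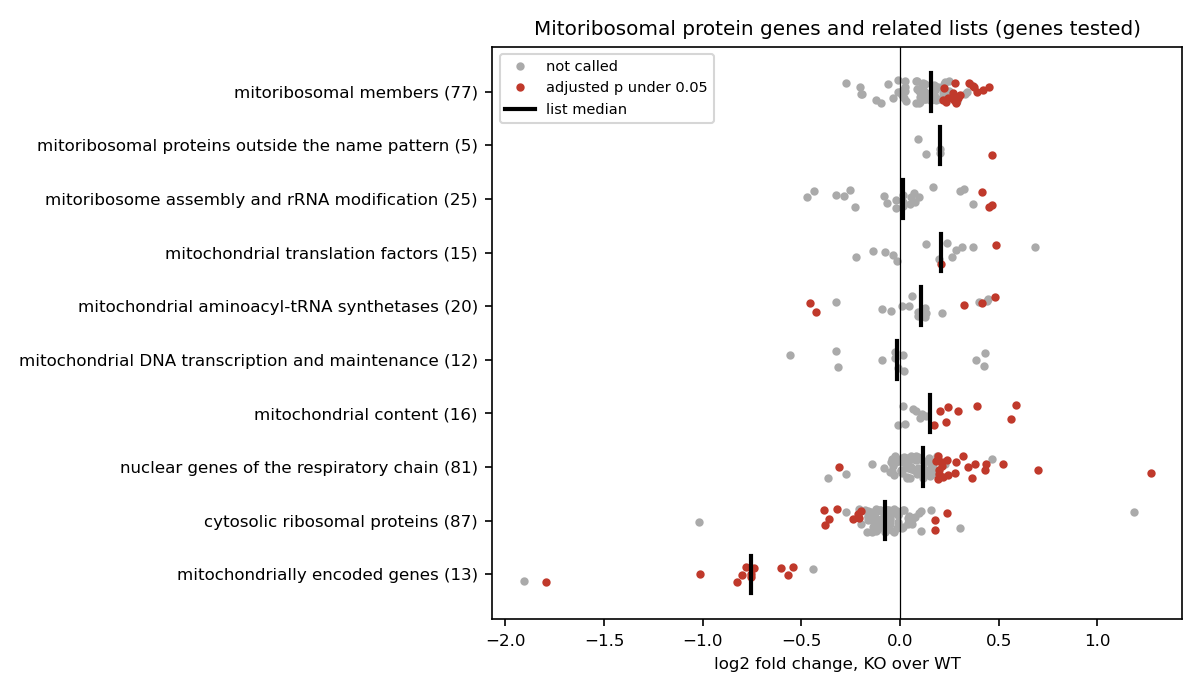
log2 fold change (KO over WT) of each tested gene in the mitoribosomal members and 9 related lists, with the list median as a bar and genes past an adjusted p of 0.05 (edgeR) in red. The members centre at 0.16, cytosolic ribosomal proteins at -0.076 (0.0092 with library totals alone) and mitochondrially encoded genes at -0.76.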

How the data were processed

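RNA was measured in 4 libraries of sorted cells, 2 labelled KO and 2 labelled WT; total RNA was extracted with Trizol and libraries were made by BGI, per the labels' protocols. Per the file headers, each deposited table holds raw counts by gene, which are whole numbers. It also holds FPKM computed by the authors, used here only to set levels of different genes side by side. Per the submitters' processing notes, Trim Galore 0.4.4, featureCounts, Bowtie2, DESeq2 and edgeR were used with the build mm10, in roles the notes leave out. The annotation and the strand setting of the counting are not stated there.

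Counts were fitted with edgeR 4.0.16 in R 4.3.3 (filterByExpr at minimum counts of 10 per library and 15 in total, TMM, robust glmQLFit, glmQLFTest), which kept 13358 of 14082 genes; a call is a Benjamini-Hochberg adjusted p under 0.05. The step was tested on simulated data of 13155 genes, with 49 or 50 genes changed at each fold named here. It recovered 22% of 50 genes changed 1.25-fold and 63.3% of 49 changed 1.5-fold. At 2-fold and 4-fold it recovered 77.6% and 88%, and 3.12% of its calls were false. In the data 21.2% of tested genes were called, a far larger share than was changed in the simulation. Recovery in the data may therefore differ. Alternatives were other scalings, no filter, the replicate number as a block, DESeq2 1.42.0, limma-voom (limma 3.58.1) and each library left out. Replicates differed by more than counting noise (chi-square per degree of freedom 9.72 for KO and 7.39 for WT), so none was merged. Member counts per library ran from 302 to 4173. Gene positions are from GENCODE M21 (GRCm38, the assembly called mm10), with 77 of 77 members matched. RefSeq promoter windows matched 68 members.

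The members and lists were chosen with earlier results of these data known. Genes were named by rule: up to 10 called members in each direction by p (the other 7 in brief), the extremes of fold and of FPKM, the Mrps18 paralogs, the members with the largest replicate gaps, and up to 4 called genes of each related list. Mrpl53, Trmt61b, Mtrfr, Trac and Klra8 were on the lists and are not analysed here. Values of 1 further called gene are not reported here, and called genes outside the rule are given as counts.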

Additional observations from a re-analysis of the deposited data

How the results depend on the processing

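The members' count of 17 higher stayed within 1.5 times, at 16 to 19, with RLE size factors, without mitochondrially encoded genes, with no filter, with the replicate block and with limma-voom, and the count lower was 0 in every alternative run. Library totals alone gave 35 higher and DESeq2 10, and leaving out 1 library gave 1 to 20. The cause was not tested, but leaving out a library also leaves 1 sample in its group, which is assumed to vary like the others. The members' median log2 fold change was 0.242 with library totals alone, where the median of all genes was 0.0815, and 0.129 to 0.183 with 1 library left out. Over all genes, library totals alone gave 2105 higher and 1013 lower against 1354 and 1472 with TMM, and leaving out 1 library gave 714 to 1605 higher and 831 to 1787 lower. With mitochondrially encoded genes out of the total, the mean share of the members was 0.507% in KO and 0.450% in WT, against 0.473% and 0.404%. The ratio of the highest to the lowest level was 44.2 per coding transcript and 29.2 as deposited. Across the 11 alternatives, 13 of 77 members had log2 fold changes on both sides of 0, none of them called. Among genes named in the text, those that reversed were Mrpl43 (0.0486 with library totals alone, -0.189 to 0.134 with 1 library left out), Mrpl48 (-0.0385 to 0.0711 with 1 library left out) and Smad4 (-0.0632 to 0.398 with 1 library left out), which were not called with all libraries.

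Replicate numbers are shared between the groups, but deviations of same-numbered libraries from their group means were not related over 13358 genes (r = -0.0153), so the numbers were not taken as a pairing. With the replicate block 16 members were higher, 14 of them among the 17, and over all genes 1393 were higher and 1522 lower. Genes of few counts have wide errors at this depth.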

Other observations

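Some genes of the mitochondrial ribosome start beside a gene on the opposite strand. Of 77 members, 32 had a listed protein-coding gene whose start lay within 1000 bases on the other strand, with Mrpl46 and Mrps11 each the partner of the other. Pairs whose transcripts overlap at their starts were counted too. The share of all genes with such a partner was not measured. The 31 tested partners had a median log2 fold change of 0.025, with 1 (3.23%) higher and 0 lower by edgeR. By unadjusted p below 0.05, 1 partner was lower, and 0 were by DESeq2 or limma-voom. The 32 members with a partner had a median of 0.12, with 2 (6.25%) higher. Over all tested genes, 10.1% were higher and 11.0% lower. The partner that was higher, Wdfy1, had a log2 fold change of 0.33 (edgeR adjusted p = 0.0477) beside 0.33 for Mrpl44 (edgeR adjusted p = 0.085), but the genes share 126 exon bases on opposite strands, so their reads may be split. Ptcd2, whose start lies 81 bases from that of Mrps27, had a log2 fold change of 0.23 (edgeR adjusted p = 0.143) beside 0.45 for Mrps27. Mitd1, 66 bases from the start of Mrpl30, had -0.16 (edgeR adjusted p = 0.428) beside 0.24 for Mrpl30. Psma2, a proteasome gene 75 bases from the start of Mrpl32, had -0.099 (edgeR adjusted p = 0.239) beside -0.20 for Mrpl32. Fau, which encodes a protein of the cytosolic ribosome and starts 59 bases from Mrpl49, had -0.053 beside 0.25 for Mrpl49, neither of which passed. Of 30 distinct pairs with both genes tested, 18 had both log2 fold changes on the same side of 0. Taken singly, 28 of the 32 members and 17 of the 31 tested partners lay above 0. Differences between the genes of a pair were not tested.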
